A study of Homo sapiens with 8 samples.

Results

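The SLC25 family is the set of carrier proteins that move metabolites across the inner mitochondrial membrane. Its members were taken as every gene whose symbol is SLC25A followed by a number, which gave 48 of the 23710 gene symbols counted, with no use of any measured value. Poly-A RNA was sequenced in 8 libraries of a lymphoblastoid line, human B cells immortalised by Epstein-Barr virus. The 4 groups, with 2 biological replicates each per the labels, were untreated control cells, cells at 24 h of exposure to 5 µM hexavalent chromium, and cells 3 days and 7 days post treatment after that exposure. All groups were grown in RPMI medium and came from 1 cell line, so nothing here covers differences between lines. The labels count days from treatment and the series text counts time from the onset of exposure, so the zero of the day count is not settled. Control cells precede the exposure, and unexposed cells of later times were not analysed here. The effect of exposure and that of time in culture cannot be told apart.

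SLC25 carriers are encoded in the nucleus, made in the cytosol and inserted into the inner membrane by the TIM22 import machinery. Oxidative phosphorylation needs ADP and phosphate inside the matrix and ATP outside it, which is the task of the ADP/ATP carriers and of the phosphate carrier. Other members carry amino acids, di- and tricarboxylates, nucleotides and cofactors, and so link the citric acid cycle, the malate-aspartate shuttle, haem synthesis and one-carbon metabolism to the cytosol. A few members sit in other membranes, such as SLC25A17 in peroxisomes and SLC25A46 in the outer mitochondrial membrane.

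Of the 48 members, 39 passed the count filter and were tested, and 9 did not. Of these 9, no count was found in any library for SLC25A6, SLC25A21, SLC25A31, SLC25A47 and SLC25A48. SLC25A18, a glutamate carrier, had 2 counts in 1 library, SLC25A27 and SLC25A52 had at most 2 and 1 counts, and SLC25A41 had 1 to 5. A count of 0 allowed up to 3 counts, or 0.264 to 0.331 CPM (read counts scaled to TMM-adjusted library size), a limit that covers counting error only. SLC25A6 encodes an ADP/ATP carrier and lies in the pseudoautosomal region, which the reference carries on both sex chromosomes. Of 18 protein-coding pseudoautosomal genes in the tables, 17 had no count in any library, so the 0 of SLC25A6 was not read as a lack of expression.

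The libraries held 9478459 to 11110830 gene counts, and B cell identity was clear, with 8 of 8 B cell markers at 10 CPM or more and the 5 erythroid markers at 0. None of 8 T and NK cell markers and none of 7 stromal or epithelial markers reached 10 CPM, against 1 of 7 myeloid markers. Summed levels were 2108 to 2894 CPM for the B cell markers, 0.465 to 1.76 for T and NK cells, 5.18 to 14.2 for myeloid cells and 1.55 to 7.2 for stromal or epithelial cells. Replicate 1 at 3 days and replicate 1 at 7 days stood apart from the other 6 libraries. Reads in no feature were 39.4% and 36.5% there against 44.4% to 51.5% elsewhere. The main late values are therefore also given without these 2 libraries, from a fit on the other 6. In bulk RNA, fewer cells of a type and less RNA per cell cannot be told apart.

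Per kilobase of transcript, 2 carriers of oxidative phosphorylation stood above all others. SLC25A3, the phosphate carrier, had a mean of 508 CPM per kb over the 8 libraries (SD 181, range 334 to 797). SLC25A5, the ADP/ATP carrier form typical of dividing cells, followed at 300.3 (SD 118, range 175 to 496). SLC25A36, a pyrimidine nucleotide carrier, came next at 103 (SD 25.5), and SLC25A46, an outer membrane protein of mitochondrial dynamics, followed at 57.7 (SD 7.29). SLC25A3, SLC25A5 and SLC25A36 kept this order in each of the 8 libraries, and SLC25A46 lay below them in all 8. SLC25A46 exceeded its neighbour SLC25A39 in 6 of 8, and SLC25A39 exceeded SLC25A17 in 5 of 8. Of 38 neighbouring pairs in the ranking, 5 kept their order in every library. The other ADP/ATP carrier that could be tested, SLC25A4, the form typical of heart and muscle, was at 3.08 CPM per kb (SD 0.72). The lowest tested members were SLC25A37 at 0.82, SLC25A2 at 0.53 and SLC25A34 at 0.43 CPM per kb.

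**Figure D1:**
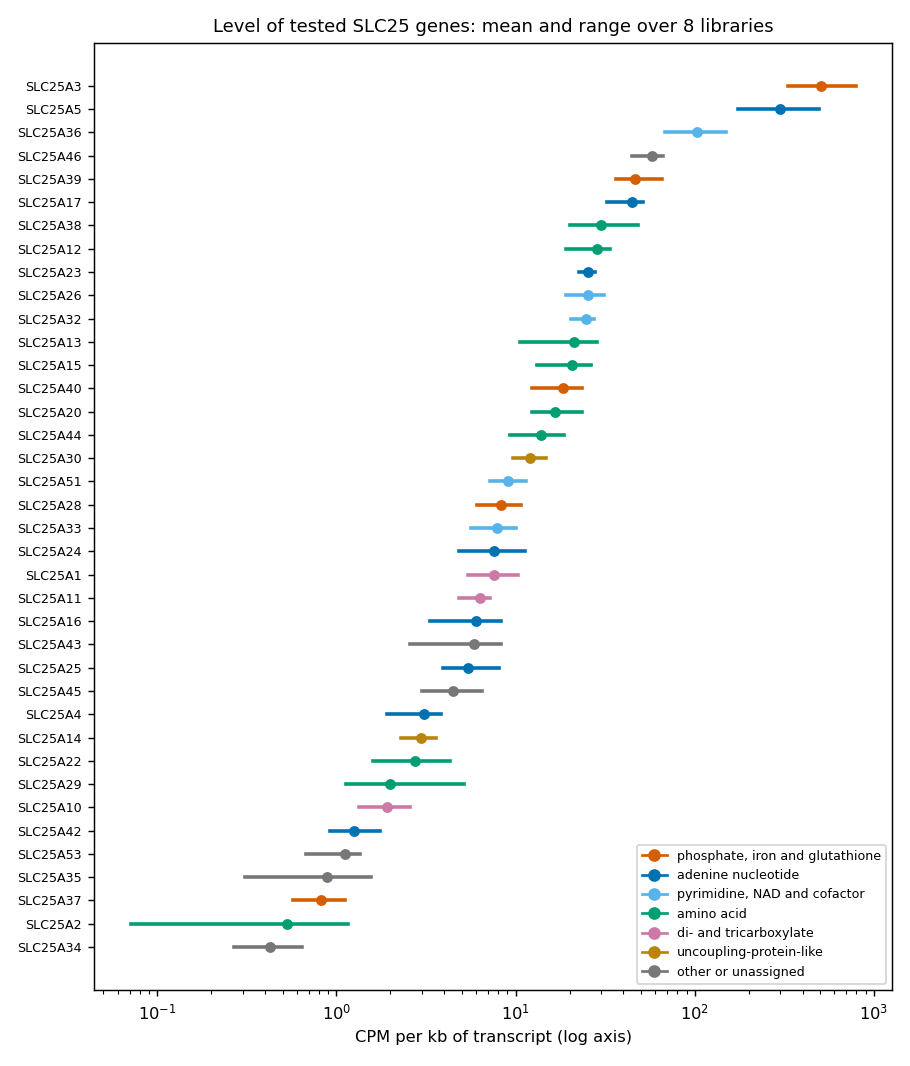
Level of 38 of the 39 tested SLC25 genes in CPM per kb of transcript on a log axis, as the mean (point) and the range over 8 libraries (line), coloured by substrate group. SLC25A3 (508) and SLC25A5 (300.3) lie above all others, and the ranges of most neighbours lower down overlap.

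In CPM, 3 members stayed at 100 or more in every library (SLC25A3, SLC25A5 and SLC25A36), 22 at 10 or more, and 8 were under 10 in every library. For the median member the highest library was 2.00 times the lowest, and 20 of 39 spanned less than 2-fold. All members together took 0.213% to 0.282% of the gene counts. Their summed level was 3016 and 3004 CPM in replicate 1 at 3 and at 7 days and 2068 to 2367 in the other 6 libraries. SLC25A3 and SLC25A5 made up 56.6% and 55.7% of that sum in the first 2 of these and 32.7% to 41.3% in the rest. In the remaining late libraries, replicate 2 at 3 and at 7 days, the sums of 2367 and 2204 CPM lay near the early values.

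The sequences directly upstream of 4 genes are shown because the largest members and the aspartate/glutamate carriers recur in the comparisons that follow. They are the 250 bases before the RefSeq start in GRCh38.p14, 5′ to 3′ on the gene's strand, for SLC25A5 (chrX:119468194-119468443, plus strand), SLC25A3 (chr12:98593436-98593685, plus), SLC25A12 (chr2:171894245-171894494, minus) and SLC25A13 (chr7:96322099-96322348, minus). Capitals mark matches to the 5 motifs searched on both strands.
SLC25A5: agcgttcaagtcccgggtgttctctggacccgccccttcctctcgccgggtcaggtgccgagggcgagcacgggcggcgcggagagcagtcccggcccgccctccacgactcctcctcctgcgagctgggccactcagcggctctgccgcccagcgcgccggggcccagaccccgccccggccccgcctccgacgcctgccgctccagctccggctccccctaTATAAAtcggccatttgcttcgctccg
SLC25A3: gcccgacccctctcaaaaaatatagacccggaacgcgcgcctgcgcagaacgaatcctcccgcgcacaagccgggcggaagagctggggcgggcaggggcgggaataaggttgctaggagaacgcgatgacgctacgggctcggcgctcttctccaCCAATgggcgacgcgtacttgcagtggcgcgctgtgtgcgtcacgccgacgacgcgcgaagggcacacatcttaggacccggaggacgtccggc
SLC25A12: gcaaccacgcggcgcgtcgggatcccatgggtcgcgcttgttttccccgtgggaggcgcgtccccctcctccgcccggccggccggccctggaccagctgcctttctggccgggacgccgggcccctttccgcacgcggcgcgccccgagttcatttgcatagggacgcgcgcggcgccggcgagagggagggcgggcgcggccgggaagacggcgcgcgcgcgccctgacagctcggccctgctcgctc
SLC25A13: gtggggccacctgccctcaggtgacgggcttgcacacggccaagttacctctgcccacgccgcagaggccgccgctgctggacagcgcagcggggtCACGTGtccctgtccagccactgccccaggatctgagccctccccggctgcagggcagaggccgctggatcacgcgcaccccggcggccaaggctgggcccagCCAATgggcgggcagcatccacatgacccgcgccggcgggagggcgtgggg

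SLC25A5 held the TATA motif TATAAA at -27 from its start, SLC25A3 the NF-Y motif CCAAT at -94, and SLC25A13 the E-box CACGTG at -154 and CCAAT at -51, while SLC25A12 held none of the 5. Promoters of 40 members were found in the RefSeq table. CCAAT was present in 45% of them against 34.5% of all 15843 promoters of the same length, CACGTG in 17.5% against 7.84%, and the ETS motif CCGGAAG in 20.0% against 11.8%. TATAAA was present in 7.5% against 9.23%, and the full palindromic NRF1 motif in none of the 40 against 1.48%. The motifs do not overlap one another, and a match describes the letters only.

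At 24 h of exposure, the comparison with control asks what differed in the carriers while chromium was present. No member passed: edgeR's quasi-likelihood test with Benjamini-Hochberg adjustment over 12536 genes called 0 of 39 members (0% of all genes), and 0 had an unadjusted p under 0.05 (0.175% of all genes). DESeq2 likewise called 0, with 0 at an unadjusted p under 0.05. No share over all genes is given for DESeq2 here or in the comparisons that follow. The family stayed centred, with a median log2 fold change of -0.01 (0.00 over all genes), 19 members higher and 20 lower. Both libraries lay above both controls for 2 members (11.4% of all genes), SLC25A43 and SLC25A34. They lay below for 5 (12.5%), namely SLC25A45, SLC25A28, SLC25A23, SLC25A25 and SLC25A42.

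Of the 5 members with the smallest p at 24 h, 3 carry amino acids, a group that holds 9 of the 39 tested members. These 3 did not share a direction. SLC25A22, a glutamate carrier, was at 11.5 and 8.50 CPM in control and at 4.32 and 8.65 at 24 h, then 7.91 and 6.25 at 3 days and 6.18 and 5.83 at 7 days. Its log2 fold change at 24 h was -0.62 ± 0.39 (SE), and its groups overlapped there. It was -0.21 without 24 h replicate 1 and -1.21 without 24 h replicate 2 (unadjusted p = 0.0268 by edgeR's quasi-likelihood test). SLC25A29, a carrier of basic amino acids, was at 2.99 and 4.71 CPM in controls, 11.6 and 2.79 at 24 h, 3.49 and 4.64 at 3 days, and 2.54 and 2.91 at 7 days. Its 0.90 ± 0.62 at 24 h rested on 24 h replicate 1 alone and was -0.46 without it. SLC25A45, a less studied member, was at 12.8 and 11.5 CPM in controls, 8.04 and 9.76 at 24 h, 7.09 and 14.3 at 3 days, and 6.63 and 8.84 at 7 days. It was lower in both 24 h libraries (-0.45 ± 0.37). SLC25A33, a pyrimidine nucleotide carrier, was at 31.5 and 24.98 CPM in controls, 31.1 and 38.7 at 24 h, 35.0 and 28.2 at 3 days, and 31.1 and 21.7 at 7 days, a 24 h difference of 0.31 ± 0.27 with overlapping groups. That difference was 0.14 without 24 h replicate 2 and 0.48 without control replicate 1.

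SLC25A15, the ornithine carrier of the urea cycle, completes these 5. It was at 36.7 and 25.3 CPM in controls, 20.9 and 29.8 at 24 h, 35.8 and 34.3 at 3 days, and 42.0 and 37.9 at 7 days. The 24 h difference of -0.29 ± 0.27 was 0.0023 without control replicate 1, -0.061 without 24 h replicate 1 and -0.57 without 24 h replicate 2. Adjusted p was 1 for each of the 5 members in edgeR's quasi-likelihood test.

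At 3 days post treatment, no member passed either. The smallest adjusted p in edgeR's quasi-likelihood test with Benjamini-Hochberg adjustment was 0.843, and 0 of 39 members were called (0% of all genes). An unadjusted p under 0.05 was found for 2 members (5.29% of all genes), SLC25A30 and SLC25A5, both higher. DESeq2 called 0 and had 2 at an unadjusted p under 0.05, a count without its share over all genes and not read as a result about the family. The median log2 fold change was 0.07 (0.01 over all genes), with 24 members higher and 15 lower. Both libraries lay above both controls for 6 members (16.7% of all genes) and below for 5 (17.2%), shares near or under those of all genes. Without the late replicate 1 libraries the median was 0.14.

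At 7 days post treatment the smallest adjusted p was 0.851 in the same test, and 0 of 39 members were called (0% of all genes). An unadjusted p under 0.05 was found for 0 members (4.94% of all genes). DESeq2 called 0 and had 1 at an unadjusted p under 0.05, again without a share over all genes and not read as a result about the family. The median log2 fold change was -0.02 (0.00 over all genes), with 18 higher and 21 lower. Both libraries lay above both controls for 6 members (16.6%) and below for 7 (17.9%). Without the late replicate 1 libraries the median was -0.06. The comparisons at 24 h, 3 days and 7 days share the same 2 control libraries. When the 3 exposed groups were tested jointly, edgeR called 0 members (0% of all genes) and 0 had an unadjusted p under 0.05 (3.56% of all genes).

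**Figure D2:**
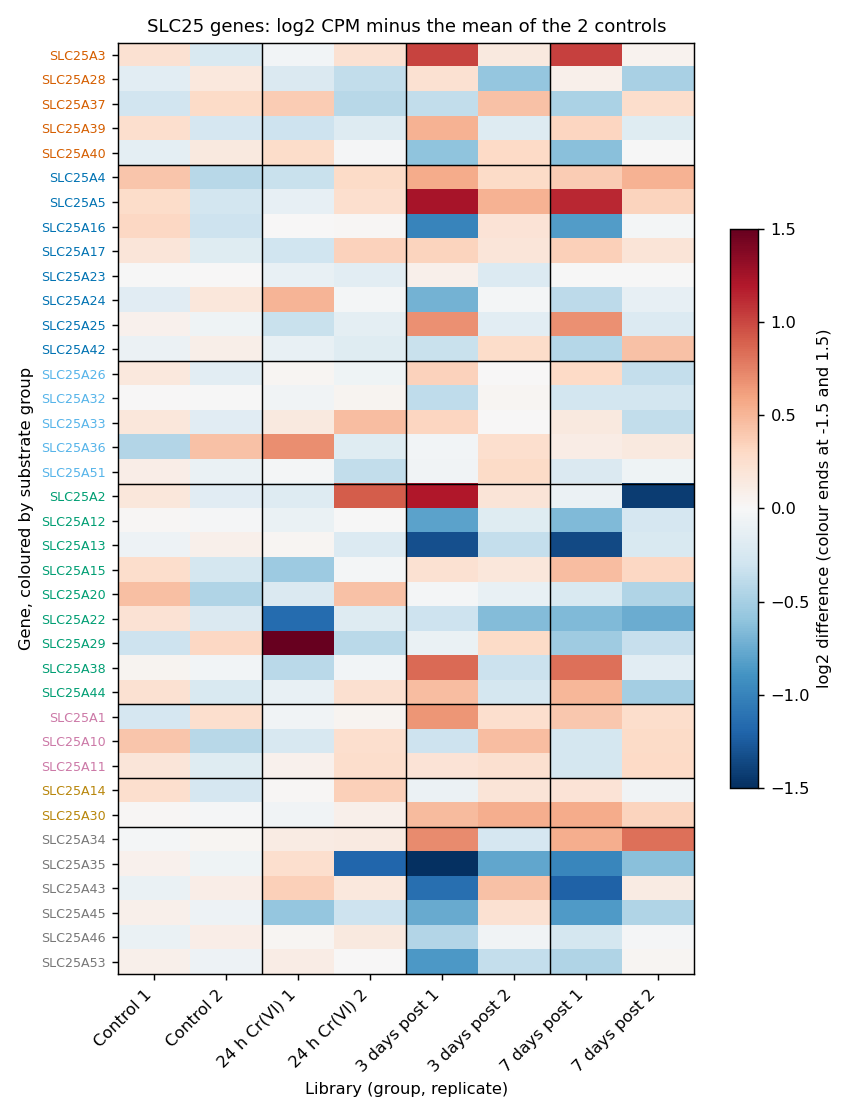
Log2 CPM of 38 of the 39 tested SLC25 genes minus the mean of the 2 controls, by library, with genes coloured by substrate group and the colour scale ending at -1.5 and 1.5. Replicate 1 at 3 days and at 7 days carry most of the deep colours; SLC25A29 in 24 h replicate 1 and SLC25A2 in 7 day replicate 2 are among the exceptions.

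SLC25A5 imports ADP and exports ATP. It was at 325 and 223 CPM in controls, 246 and 319 at 24 h, 631 and 385 at 3 days, and 591 and 340.1 at 7 days. All 4 libraries of the later times lay above all 4 earlier ones, with replicate 1 far higher than replicate 2 at both. The log2 fold change was 0.89 ± 0.37 at 3 days (unadjusted p = 0.0403, edgeR's quasi-likelihood test) and 0.77 ± 0.37 at 7 days (unadjusted p = 0.0689). Without replicate 1 at 3 and 7 days, the values were 0.50 and 0.32. Reads of SLC25A5 are uncertain to the extent that they were shared with its 9 annotated pseudogenes, and the antisense gene SLC25A5-AS1 had 14 to 28 counts in a library.

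SLC25A3 brings phosphate into the matrix. It was at 626 and 453 CPM in controls, 518 and 622 at 24 h, 1075 and 589.8 at 3 days, and 1083 and 554 at 7 days. The replicate 2 libraries of the later times stayed within the range of the early libraries. The log2 difference was 0.63 at 3 days and 0.60 at 7 days, and 0.57 ± 0.28 for the 4 later against the 4 earlier libraries. Without late replicate 1 the last value was 0.05. SLC25A3 has 2 annotated pseudogenes. Over the 8 libraries, the family members like SLC25A5 in log2 CPM included SLC25A3 (Pearson r 0.96) and SLC25A25 (0.86), an ATP-Mg/phosphate carrier. These points share the 2 late replicate 1 libraries at their upper end.

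SLC25A4, at 3.08 CPM per kb against 300.3 for SLC25A5, had 15.4 and 8.50 CPM in controls, 9.05 and 14.0 at 24 h, 17.0 and 14.0 at 3 days, and 14.9 and 16.5 at 7 days. Its 4 later libraries overlapped with the earlier ones (0.41 ± 0.25, and 0.37 without late replicate 1). Among the 8 tested carriers of adenine nucleotides and coenzyme A, 5 were higher and 3 lower at 3 days with a median of 0.13, and the same numbers at 7 days gave a median of 0.17. The medians without late replicate 1 were 0.18 and 0.09, with 4 higher and 4 lower at 7 days. SLC25A17, the peroxisomal member of the group, was above both controls in both late groups, at 114 and 102.3 CPM at 3 days and 116 and 103 at 7 days against 102.1 and 79.7. SLC25A16, SLC25A23, SLC25A24, SLC25A25 and SLC25A42 lay between -0.41 and 0.33 at both late times in the fit on all libraries.

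SLC25A30, an uncoupling-protein-like carrier, differed little between the late replicates. It was at 36.6 and 35.9 CPM in controls, 35.0 and 38.2 at 24 h, 50.4 and 53.2 at 3 days, and 53.6 and 45.9 at 7 days. The 4 later libraries lay clear of the 4 earlier ones. The log2 fold change was 0.51 ± 0.20 at 3 days (unadjusted p = 0.0348) and 0.45 ± 0.20 at 7 days (unadjusted p = 0.0546, both by edgeR's quasi-likelihood test). Leaving out replicate 1 at 3 and 7 days gave 0.56 and 0.34. Its exons overlap the opposite-strand gene TPT1-AS1, and without a stated strand setting the reads of the pair cannot be told apart. SLC25A14, the other tested member of its group, was at 3.48 to 5.39 CPM over all libraries. The pair had a median of 0.28 at 3 days and 0.26 at 7 days, and 0.37 and 0.13 without late replicate 1.

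SLC25A12 and SLC25A13, the calcium-regulated aspartate/glutamate carriers of the malate-aspartate shuttle, were lower at the later times without passing the threshold. SLC25A12 was at 100.2 and 98.2 CPM in controls, 92.5 and 99.1 at 24 h, 56.9 and 87.2 at 3 days, and 62.6 and 83.5 at 7 days. SLC25A13 was at 80.9 and 89.8 CPM in controls, 87.1 and 74.1 at 24 h, 34.1 and 66.5 at 3 days, and 33.4 and 72.9 at 7 days. For both genes all 4 later libraries lay below all 4 earlier ones, and replicate 1 was the lower at each late time. At 3 days SLC25A13 was at -0.76 ± 0.41 and SLC25A12 at -0.46. At 7 days they were at -0.68 and -0.44 ± 0.26. Without the late replicate 1 libraries, SLC25A13 was at -0.35 at 3 days and -0.23 at 7 days. SLC25A12 was then at -0.18 at 3 days and -0.25 at 7 days. The 2 genes had a Pearson r of 0.96 with each other over the 8 libraries, and their points share the late replicate 1 libraries at the lower end. Such values were not particular to the pair. SLC25A12 had an r of 0.91 with SLC25A46, and SLC25A13 had 0.92 with SLC25A43.

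**Figure D3:**
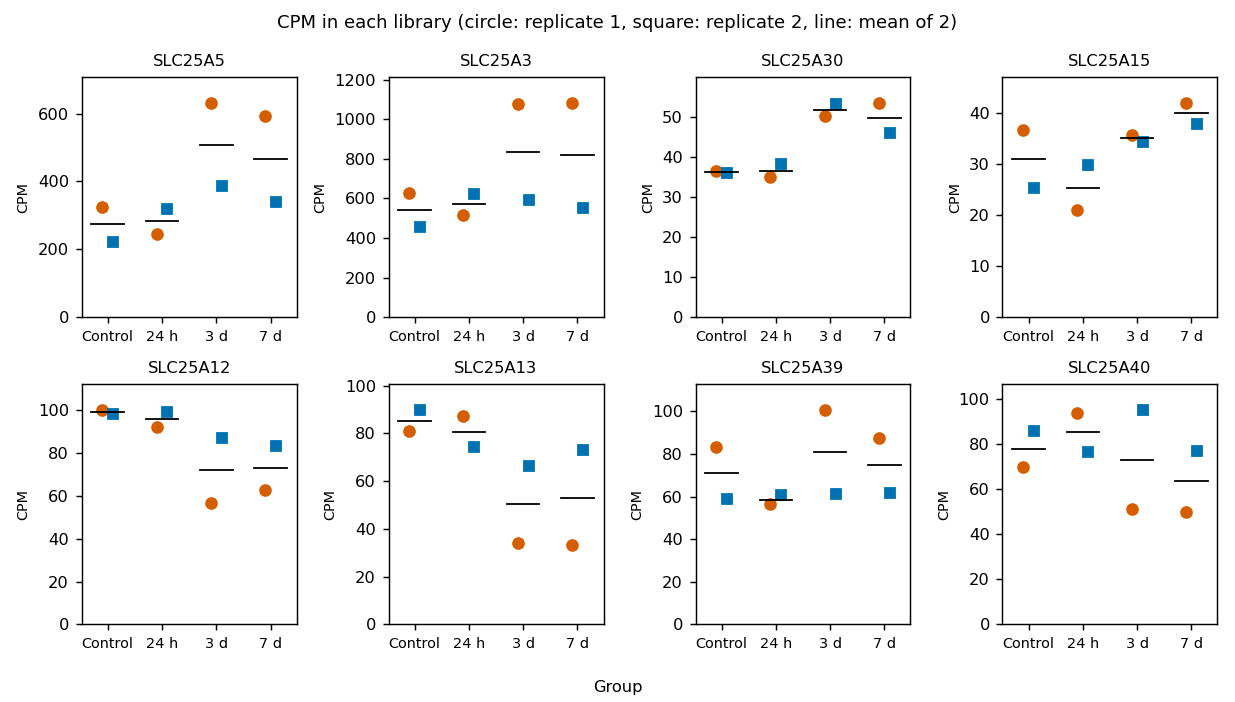
CPM of 8 SLC25 genes in each library by group, with axes from 0; circles are replicate 1, squares replicate 2 and lines the mean of 2. SLC25A30 lies at 45.9 to 53.6 in all late libraries against 35.0 to 38.2 in early ones, while SLC25A5, SLC25A3, SLC25A13 and SLC25A40 split by replicate at 3 and 7 days.

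Of the 9 tested amino acid carriers, which include SLC25A12, SLC25A13 and the carnitine carrier SLC25A20, 5 were higher and 4 lower at 3 days (median 0.09). At 7 days 3 were higher and 6 lower (median -0.44). For late against early libraries 3 were higher and 6 lower (median -0.31), and the 2 with an unadjusted p under 0.05 in edgeR's quasi-likelihood test, SLC25A12 and SLC25A13, were both lower. In the fit without late replicate 1, 3 of the 9 were higher at 3 days (median -0.18), 1 at 7 days (median -0.39) and 1 for late against early (median -0.39). The 7 carriers beside SLC25A12 and SLC25A13 had medians of 0.13 at 3 days and -0.41 at 7 days, and of -0.17 and -0.52 without late replicate 1. Of these medians, -0.41, -0.17 and -0.52 are the values of SLC25A20, which carries carnitine and not an amino acid. SLC25A22 was below both controls at 7 days (-0.74 ± 0.39, and -0.78 without late replicate 1). SLC25A38, a glycine carrier needed for haem synthesis, was at 89.0 and 88.0 CPM in replicate 1 of the late groups and at 39.4 and 44.2 in replicate 2, against 37.3 to 50.9 early. SLC25A44, a carrier of branched-chain amino acids, had a like split, with 65.1 and 66.6 against 39.1 and 33.1 CPM. SLC25A2, an ornithine carrier close to SLC25A15, was near the counting floor at 0.70 and 0.51 CPM in controls, 0.50 and 1.30 at 24 h, 1.64 and 0.71 at 3 days, and 0.55 and 0.10 at 7 days.

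SLC25A1, the citrate carrier, exports citrate for cytosolic acetyl-CoA. It was at 8.61 and 12.3 CPM in controls, 9.95 and 10.6 at 24 h, 16.3 and 12.3 at 3 days, and 13.7 and 12.4 at 7 days. The later libraries lay above the earlier ones by a margin of hundredths of a CPM at the nearest pair, and the late-against-early difference was 0.40 ± 0.20, or 0.26 without late replicate 1. It has 5 annotated pseudogenes. The oxoglutarate carrier SLC25A11 and the dicarboxylate carrier SLC25A10 were between -0.02 and 0.22 at 3 and 7 days. The 3 carriers had a median of 0.22 at 3 days and 0.04 at 7 days, and of 0.25 at both without late replicate 1, all 3 then being higher.

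The mitoferrins, which import iron for haem and iron-sulphur clusters, did not separate the groups at the later times. SLC25A28 was at 11.9 and 14.8 CPM in controls, 11.5 and 10.2 at 24 h, 15.6 and 8.83 at 3 days, and 14.0 and 9.45 at 7 days. SLC25A37 was at 3.16 and 4.81 CPM in controls, 5.13 and 2.88 at 24 h, 2.98 and 5.35 at 3 days, and 2.76 and 4.72 at 7 days. The 2 genes had opposite replicate differences at the late times, with replicate 1 higher for SLC25A28 and lower for SLC25A37. The late-against-early difference was -0.01 for each (SE 0.25 and 0.35). Without late replicate 1 it was -0.39 for SLC25A28 and 0.34 for SLC25A37.

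SLC25A39 and SLC25A40, paralogs linked to glutathione import, also split in opposite ways. SLC25A39 was at 83.1 and 58.8 CPM in controls, 56.3 and 60.9 at 24 h, 100.6 and 61.1 at 3 days, and 87.7 and 61.8 at 7 days. SLC25A40 was at 69.7 and 85.8 CPM in controls, 93.8 and 76.3 at 24 h, 50.9 and 94.9 at 3 days, and 49.9 and 76.9 at 7 days. At both late times replicate 1 was the higher for SLC25A39 and the lower for SLC25A40, so the group means hide the pattern. Without late replicate 1 the late-against-early difference was -0.07 for SLC25A39 and 0.08 for SLC25A40. The 5 carriers of phosphate, iron and glutathione had medians of 0.07 at 3 days and -0.08 at 7 days, or 0.14 and -0.01 without late replicate 1. Exons of SLC25A40 overlap the opposite-strand gene DBF4.

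Of the 6 tested carriers of pyrimidine nucleotides, NAD and cofactors, 5 were higher at 3 days (median 0.14) and 3 at 7 days (median -0.05). In the fit without late replicate 1, 5 (median 0.02) and 2 (median -0.17) were higher. SLC25A36 ranged from 165 to 362 CPM, with 165 and 302 in control and 362 and 197 at 24 h, a wider replicate gap than any group difference. SLC25A51, the NAD carrier, was at 14.1 and 12.3 CPM in controls, 12.9 and 10.1 at 24 h, 12.6 and 16.1 at 3 days, and 11.3 and 12.6 at 7 days. SLC25A26 (S-adenosylmethionine) and SLC25A32 (folate and FAD) were at 20.9 to 34.0 and 59.1 to 78.9 CPM.

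Members with other or unassigned substrates were mostly lower at the late times, 5 of 6 at both 3 days (median -0.21) and 7 days (median -0.30). These counts moved when the late replicate 1 libraries were left out. Then 4 of 6 were lower at 3 days (median -0.17), 3 of 6 at 7 days (median 0.00054) and 3 of 6 for late against early (median 0.02). SLC25A35 was at 2.72 and 2.46 CPM in controls, 3.12 and 1.02 at 24 h, 0.62 and 1.43 at 3 days, and 1.21 and 1.61 at 7 days. Its difference at 3 days, -1.32 ± 0.65, had an unadjusted p of 0.0786 in edgeR's quasi-likelihood test, from few counts. It was -0.85 without 3 day replicate 1 and -2.05 without 3 day replicate 2 (unadjusted p = 0.044, same test). SLC25A53 was at 8.26 and 7.37 CPM in controls, 8.44 and 7.81 at 24 h, 4.21 and 6.07 at 3 days, and 5.63 and 7.94 at 7 days, or -0.60 ± 0.33 at 3 days. That difference was -0.36 without 3 day replicate 1 and -0.89 without 3 day replicate 2. SLC25A43 was at 7.61 and 7.18 CPM in the late replicate 1 libraries against 15.6 to 22.9 in the other 6. SLC25A34 and SLC25A46 were at 0.80 to 1.91 and 71.1 to 106 CPM.

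Between 7 and 3 days, edgeR called 0 of 39 members (0% of all genes; adjusted p close to 1 for all), 0 had an unadjusted p under 0.05 (0.247% of all genes), and DESeq2 had 0 by either measure. The median was -0.06 (0.00 over all genes). Both libraries lay higher for 1 member (5.24% of all genes), SLC25A15, and lower for 5 (6.41%), SLC25A2, SLC25A51, SLC25A29, SLC25A20 and SLC25A22. The members with the smallest p were SLC25A2 (-1.83 ± 0.91), SLC25A45 (-0.47 ± 0.38), SLC25A53 (0.40 ± 0.33), SLC25A51 (-0.27 ± 0.27) and SLC25A33 (-0.26 ± 0.27). Each moved with single libraries. With 1 library left out at a time, SLC25A2 ranged from -3.39 (without 7 day replicate 1) to -1.05 (without 7 day replicate 2), and SLC25A45 from -0.88 (without 3 day replicate 1) to 0.13 (without 3 day replicate 2). SLC25A53 ranged from 0.14 (without 7 day replicate 2) to 0.69 (without 3 day replicate 2). SLC25A51 ranged from -0.43 (without 3 day replicate 1) to -0.082 (without 3 day replicate 2), and SLC25A33 from -0.54 (without 7 day replicate 1) to -0.011 (without 7 day replicate 2).

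The 4 later libraries were also set against the 4 earlier ones, a contrast chosen with earlier results of these data known. In edgeR's quasi-likelihood test with Benjamini-Hochberg adjustment, 0 members were called (0.00798% of all genes), and 4 had an unadjusted p under 0.05 (14.2% of all genes). DESeq2 called 0 and had 4, a count without its share over all genes and not read as a result about the family. By edgeR's quasi-likelihood test the 4 included SLC25A30 at 0.48 ± 0.14 (adjusted p = 0.269) and SLC25A5 at 0.81 ± 0.26 (adjusted p = 0.281). The others were SLC25A13 at -0.68 ± 0.29 (adjusted p = 0.351) and SLC25A12 at -0.43 ± 0.18 (adjusted p = 0.352), in the same test. SLC25A15 followed at 0.42 ± 0.19 (adjusted p = 0.363). All late libraries lay above all early ones for 3 members (5.93% of all genes) and below for 2 (7.43%). The median was -0.01 (0.01 over all genes), with 19 higher and 20 lower. Without the late replicate 1 libraries, SLC25A30 was at 0.44, SLC25A5 at 0.38, SLC25A13 at -0.25, SLC25A12 at -0.19 and SLC25A15 at 0.36.

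The 2 late replicates differed widely. Replicate 1 exceeded replicate 2 by more than 0.5 on the log2 scale at both 3 and 7 days for 9 members (16.8% of all genes), and was lower by more than 0.5 at both for 7 (18.4%). The sign was shared by 35 of 39 members, a count given without its share over all genes. The replicate differences at 3 and 7 days correlated at 0.81 over all genes and at 0.87 over the members. The largest mean values were 1.18 for SLC25A2, 1.08 for SLC25A38, 0.92 for SLC25A3, 0.87 for SLC25A25 and 0.87 for SLC25A44. That of SLC25A2 came from few counts, 16 against 8 at 3 days and 5 against 1 at 7 days. The lowest mean values were -1.45 for SLC25A43, -1.04 for SLC25A13 and -1.01 for SLC25A16. In both late replicate 1 libraries, 9 members lay above all 6 other libraries (27.1% of all genes) and 11 below (26.4%).

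Transcript length moved with this replicate difference. The 9 members that were higher in replicate 1 had a median length of 1.54 kb and the 7 lower ones 3.16 kb, against 2.26 kb for all 39. Pearson's r between log2 length and the replicate difference was -0.45 over the 39 members and -0.24 over 11474 genes, and with GC content 0.20 and 0.17. Genes in 1 library are not independent, so these are descriptions. With the trend on length and GC over all genes removed from the fold changes, the family medians were -0.04 at 24 h, 0.03 at 3 days (against 0.07), -0.03 at 7 days (against -0.02) and -0.03 for late against early (against -0.01). SLC25A44 and SLC25A25, at 3.57 and 3.47 kb, were high in replicate 1 despite their length.

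**Figure D4:**
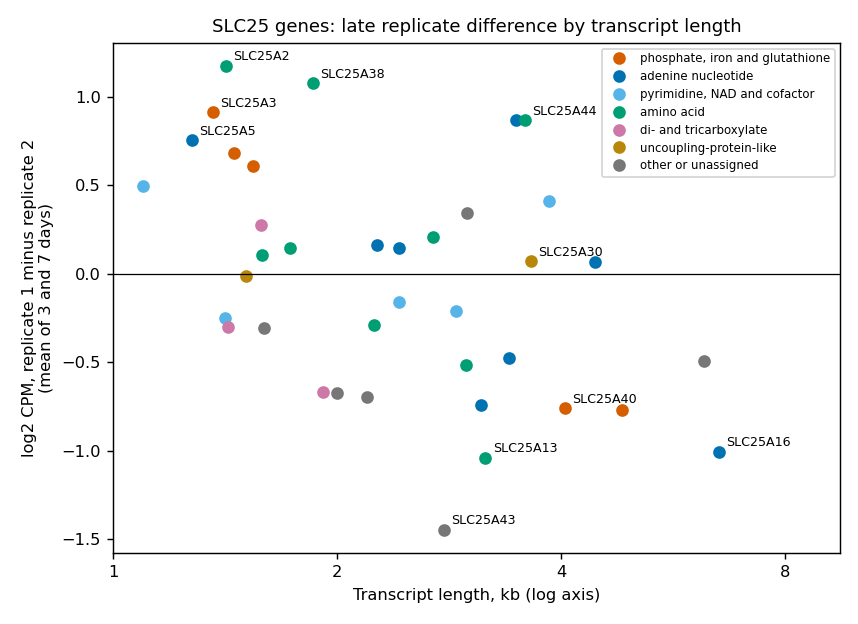
Log2 CPM of replicate 1 minus replicate 2, averaged over 3 and 7 days, against transcript length in kb (log axis) for 38 of the 39 tested SLC25 genes, coloured by substrate group. Short genes such as SLC25A3 (0.92) and SLC25A38 (1.08) lie above 0, long ones such as SLC25A16 (-1.01) below, and SLC25A30 (0.07) near 0.

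Over the family, each library was nearest to a library of another group. The root mean square log2 difference over the 39 members was 0.308 between replicate 1 at 3 and at 7 days, 0.312 between control replicate 1 and 24 h replicate 2, and 0.332 between control replicate 2 and 24 h replicate 1. The 2 replicates of a group differed more, by 0.437 for the controls, 0.581 at 24 h of exposure, 0.702 for the 3 day and 0.621 for the 7 day libraries.

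Genes around the carriers were read from lists chosen with earlier results known, and none of their tested genes was called in the comparisons with control. Of 4 tested genes of the carrier fold under other symbols, 3 were higher at 3 days (median 0.06), and 4 at 7 days (median 0.23) and for late against early (median 0.26). Without late replicate 1 these were 3 (median 0.26), 2 (median 0.21) and 3 (median 0.25). UCP2, an uncoupling protein, was at 127 and 127 CPM in control and 87.7 and 182 at 3 days. Its 3 day difference was 0.09 ± 0.40, and 0.53 without replicate 1. MTCH1, an outer membrane member of the fold, was at 0.44 ± 0.37 and UCP3, an uncoupling protein, at 0.66 ± 0.52 at 7 days, and without late replicate 1 they were at -0.0077 and 0.66. MTCH2 was at -0.02 at 3 days. Of 13 carrier import genes, 9 were higher at 3 days (median 0.26) and 8 at 7 days (median 0.21). The counts without late replicate 1 were 9 (median 0.15) and 6 (median -0.01). C19orf52, which encodes the TIM22 subunit TIMM29, was at 5.97 and 5.53 CPM in control and 11.1 and 8.30 at 3 days (0.75 ± 0.30, unadjusted p = 0.0373 in edgeR's quasi-likelihood test), and its difference was 0.54 without replicate 1.

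ATP synthase, which uses the ADP and phosphate that SLC25A5 and SLC25A3 import, had 14 of 15 tested subunits higher at 3 days (median 0.47) and 12 of 15 at 7 days (median 0.50), with 1 and 0 at an unadjusted p under 0.05. Its summed level was 4494 and 4593 CPM in the late replicate 1 libraries, 2894 and 3051 in replicate 2, and 2292 to 3096 early. Replicate 2 at both late times therefore lay within the early range. Leaving out late replicate 1, 7 of 15 subunits were higher at 3 days (median -0.02) and 10 of 15 at 7 days (median 0.05). ATP5C1, a subunit of the central stalk, was at 117 and 101 CPM in control and 166 and 144 at 3 days (0.51 ± 0.21, and 0.41 without late replicate 1).

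Among 12 enzymes of the malate-aspartate shuttle and citrate metabolism, 7 were higher at 3 days (median 0.23) and 7 at 7 days (median 0.26). Leaving out late replicate 1 gave 8 (median 0.04) and 9 (median 0.06). IDH2, the mitochondrial NADP-dependent isocitrate dehydrogenase, was at 56.05 and 62.4 CPM in controls, 98.3 and 77.3 at 3 days, and 101 and 109 at 7 days. Its 7 day difference of 0.83 ± 0.21 had an unadjusted p of 0.00453 and an adjusted p of 0.851 in edgeR's quasi-likelihood test, and was 0.88 without late replicate 1. MDH2, mitochondrial malate dehydrogenase, was at 0.68 ± 0.29 and ME1, cytosolic malic enzyme, at -0.81 ± 0.45 at 3 days, or 0.44 and -0.56 without replicate 1. The shuttle carriers SLC25A12 and SLC25A13 were lower at the same time.

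Of 21 other mitochondrial membrane transporters, 10 were higher at 3 days (median -0.03) and 9 at 7 days (median -0.05), with MPC1, a subunit of the pyruvate carrier, at -0.55 ± 0.28 and its partner MPC2 at 0.50 ± 0.36 at 3 days. Without late replicate 1 the list's medians were 0.05 and 0.09, MPC1 was at -0.29 and MPC2 at 0.33. Of 15 iron and haem enzymes, 10 were higher at 3 days (median 0.07) and 7 at 7 days (median -0.01), and 7 at each time without late replicate 1 (medians -0.00053 and -0.09). Of 10 one-carbon and glycine enzymes, 5 were higher at 3 days (median -0.03) and 4 at 7 days (median -0.04). Their counts without late replicate 1 were 7 (median 0.25) and 6 (median 0.14). SHMT2, which makes mitochondrial glycine, was at 52.7 and 61.3 CPM in controls, 119 and 88.1 at 3 days, and 106 and 80.1 at 7 days (0.86 ± 0.29 at 3 days, unadjusted p = 0.0179 in edgeR's quasi-likelihood test), a difference of 0.64 without replicate 1.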

How the data were processed

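RNA was sequenced from 8 libraries in 4 groups of 2, and the authors deposited 1 table of raw counts for each, by gene symbol. Per the submitters' processing notes, the builds GRCh37 and hg19 and the tools Bowtie2, Trim Galore, SAMtools, R 3.2.3 and DESeq2 1.8.1 were used. Counting tool, strandedness and annotation version: not given in the sources used here. Beside 23710 symbols, the tables hold 5 entries that name no gene. These took 42.6% to 57.5% of reads and stayed out of library sizes and tests. The labels call replicates biological without naming separate cultures, so p-values measure the spread between these libraries only.

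Genes were filtered with filterByExpr (minimum count 10, minimum total 15) of edgeR 4.0.16 in R 4.3.3, which left 12536. Counts were scaled by TMM and tested with edgeR's quasi-likelihood test on all 8 libraries (1 coefficient for each group, no covariate) and Benjamini-Hochberg adjustment over all genes tested. A call is an adjusted p under 0.05. Standard errors come from the F statistic, and log2 CPM used a prior count of 2. The procedure was tested on simulated data. Transcript lengths and GC are medians over GENCODE 29 basic protein-coding transcripts. Promoters, and the positions of those shown, are from RefSeq, GRCh38.p14. The counts were made on another build, so no other gene position is given. Of the tested members, 11 have a named pseudogene and 6 overlap an opposite-strand gene.

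Values per library are given for the ADP/ATP, phosphate, citrate, aspartate/glutamate and mitoferrin carriers, for any member past the threshold, and for the 5 members with the smallest p in each of 5 comparisons. From other lists, up to 3 genes with the smallest p at 3 and at 7 days were eligible. The values of 1 tested member are not reported here, though it is counted in the family. Other members are named with values chosen after they were seen. Members and lists were chosen with earlier results of these data known. Alternatives were RLE scaling, DESeq2 1.42.0, no filter, a stricter filter (50 counts in 2 libraries), only the groups compared, a replicate block, and each of the 8 libraries omitted in turn. Leaving out replicate 1 at 3 and 7 days, a crossed block, a block on 3 and 7 days alone and a length and GC correction were added after seeing the data.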

Additional observations from a re-analysis of the deposited data

How the results depend on the processing

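No member was called in any comparison under RLE scaling, DESeq2, the stricter filter, only the groups compared, the replicate block, late replicate 2 only or any library left out. Without a filter, edgeR called 1 member, SLC25A5 for late against early libraries (0.81, adjusted p = 0.0383 in edgeR's quasi-likelihood test). With the filter its adjusted p was 0.281 in the same test. No share over all genes is given for the fit without a filter, so its counts are not read as results about the family. Members at an unadjusted p under 0.05 in that fit numbered 2 at 7 days, 7 for late against early and 1 in the joint test. They numbered 1 at 3 days with only the groups compared and 1 at 7 days with DESeq2, counts also given without a share over all genes. With late replicate 2 only, 25 members did not overlap control at 3 days and 24 at 7 days, 39 differed between 7 and 3 days, where each group holds 1 library, and 8 separated late from early; fewer libraries by construction make overlap rarer. No share over all genes is given for these overlap counts, so they are not read as results about the members. The 39 was fixed in advance, with 1 library against 1. SLC25A37, near 0 for late against early, was 0.34 with late replicate 2 only.

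Over fits with 1 library left out, the counts at an unadjusted p under 0.05 ranged from 0 to 2 at 24 h, 0 to 6 at 3 days, 0 to 3 at 7 days, 0 to 1 for 7 against 3 days, 0 to 2 in the joint test and 1 to 12 for late against early. The 6 and the 12 came without 3 day replicate 2, and the 3 without 7 day replicate 2. The 3 day count was 0 without control replicate 2, either 24 h library or 3 day replicate 1, and 1 without control replicate 1. The late against early count was 1 without control replicate 2 or 24 h replicate 1, 2 without either late replicate 1, and 7 without 7 day replicate 2. Members that did not overlap ranged from 7 to 26, 11 to 32, 13 to 32, 6 to 26 and 5 to 8 in the same order, leaving out the joint test. Shares over all genes are not given for the p counts and overlap counts of these fits. Neither is read as a result about the members. The family median ranged from -0.12 to 0.026 at 24 h, -0.062 to 0.22 at 3 days, -0.14 to -0.013 at 7 days, -0.11 to -0.02 for 7 against 3 days and -0.08 to 0.03 for late against early. The sign turned for SLC25A29 (-0.46 to 1.59) and SLC25A15 (-0.57 to 0.0023) at 24 h, SLC25A45 for 7 against 3 days (-0.88 to 0.13), and SLC25A28 (-0.24 to 0.17) and SLC25A37 (-0.25 to 0.22) for late against early. The cause was not tested.

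The labels do not pair the samples, and replicate differences over all genes did not run together across all groups. They correlated at -0.60 between control and 24 h, 0.34 and 0.32 between control and 3 and 7 days, -0.32 and -0.31 between 24 h and these, and 0.81 between 3 and 7 days. With the replicate block, 0 members were called, and 1 had an unadjusted p under 0.05 at 7 days and 1 in the joint test. With the replicate block on 3 and 7 days alone, 0 members were called for 7 against 3 days and 1, SLC25A45, had an unadjusted p under 0.05 (-0.44, unadjusted p = 0.0404, edgeR's quasi-likelihood test); SLC25A2 did not pass the filter there. No share over all genes is given for the fits with a replicate block, so their counts are not read as results about the members. With 24 h numbers crossed, control and 24 h alone, 0 members were called. With 2 libraries a group, the common biological coefficient of variation of 0.276 limits what can be called, most of all for members under 10 CPM.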
